A study of Mus musculus with 12 samples.

Results

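Interferon-stimulated genes are the genes whose transcription is switched on when a cell receives interferon, and a list of 49 of them was followed through the hematopoietic stem cells of old and young mice. They were chosen by gene name, and 42 of the 49 had a row among the 14143 genes of the expression table. All 42 also passed the filter used for testing, which kept 10900 genes. Mx2, Isg15, Ifitm1, Ifitm2, Ifitm3, Bst2 and Parp14 were not analysed here. The cells came from female C57BL/6 mice for which the labels give no treatment. They lacked mature-lineage markers and CD48, carried Sca-1 and c-kit, lacked CD135, and were divided by CD150. The high fraction is called My-HSCs, for myeloid-biased, and the low fraction Ly-HSCs, for lymphoid-biased. The 4 groups were old My-HSCs, young My-HSCs, old Ly-HSCs and young Ly-HSCs, with 3 libraries each from independent groups of mice. Old mice were 18 months old and young mice 8 to 10 weeks old by the sample labels, while the protocol allows up to 12 weeks. The labels name no interferon treatment, so the name of the list rests on what is known of these genes elsewhere and was not tested in these cells.

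Type I interferons bind a receptor of the subunits IFNAR1 and IFNAR2, and the kinases JAK1 and TYK2 then phosphorylate proteins of the STAT family. STAT2 and IRF9 are parts of the factor ISGF3, which binds the interferon-stimulated response element, or ISRE, in the promoters of target genes. Interferon gamma acts through another element, called GAS. The products sense foreign nucleic acids, degrade RNA, hold back translation, mark or remodel proteins, and in part feed back on the signal itself. In hematopoietic stem cells, interferon is known to drive dormant cells into division when given acutely, and stem cells are known to hold part of this gene set switched on without infection.

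The promoter sequences describe the list apart from its expression values. A RefSeq promoter entry on GRCm38.p6 existed for 34 of the 42 members. The ISRE core searched was GAAA, any pair of bases and GAAA again, on either strand. It lay within the 250 bases before the start in 11 of them, or 32.4%, against 3.46% of 27025 genes with a promoter entry. The GAS core TTCNNNGAA lay in the same window of 6 members, or 17.6%, against 8.13% of all genes. The 7 stretches here belong to members whose values are described below, with the ISRE core in capitals and each read 5′ to 3′ on the strand of the gene.
Ifit3, chr19:34583353-34583436, plus strand: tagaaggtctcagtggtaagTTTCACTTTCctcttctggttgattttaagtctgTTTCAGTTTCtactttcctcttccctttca
Ifit1, chr19:34640765-34640833, plus strand: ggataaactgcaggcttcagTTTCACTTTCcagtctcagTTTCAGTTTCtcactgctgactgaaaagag
Rsad2, chr12:26456543-26456592, minus strand: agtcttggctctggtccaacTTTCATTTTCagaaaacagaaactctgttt
Oas1a, chr5:120907526-120907565, minus strand: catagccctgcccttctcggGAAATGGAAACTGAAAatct
Oas3, chr5:120777705-120777754, minus strand: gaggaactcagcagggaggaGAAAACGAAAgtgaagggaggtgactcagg
Igtp, chr11:58199502-58199551, plus strand: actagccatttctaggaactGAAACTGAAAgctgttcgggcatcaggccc
Irgm1, chr11:48871421-48871470, minus strand: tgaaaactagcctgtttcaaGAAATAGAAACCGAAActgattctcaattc
Ifit3 and Ifit1 each held 2 separate matches. In Oas1a and Irgm1, 2 matches overlapped, so the capitals run on. A match is a description of the letters and was not set against binding data.

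Most of the list was expressed in every library. The values are FPKM as deposited, fragments counted per length of transcript and scaled to the fragments mapped in the library, a level per length that can be set side by side between genes. The members' mean over the 12 libraries had a median of 22.1 FPKM, against 7.79 FPKM over the whole table. In all 12 libraries, 37 of 42 members stood at 1 FPKM or more, or 88.1%, against 50.8% of the table. The highest mean belonged to Samd9l, a cytoplasmic antiviral factor and brake on proliferation, at 90.4 FPKM. It was followed by Eif2ak2, the kinase PKR that halts translation on sensing double-stranded RNA, at 71.1 FPKM, the secreted glycoprotein gene Lgals3bp at 66.9 FPKM and the transcription factor gene Irf1 at 61.9 FPKM. The lowest mean, 4.32 FPKM, was that of Oasl1. The highest library lay within 2-fold of the lowest for 4 members.

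**Figure D1:**
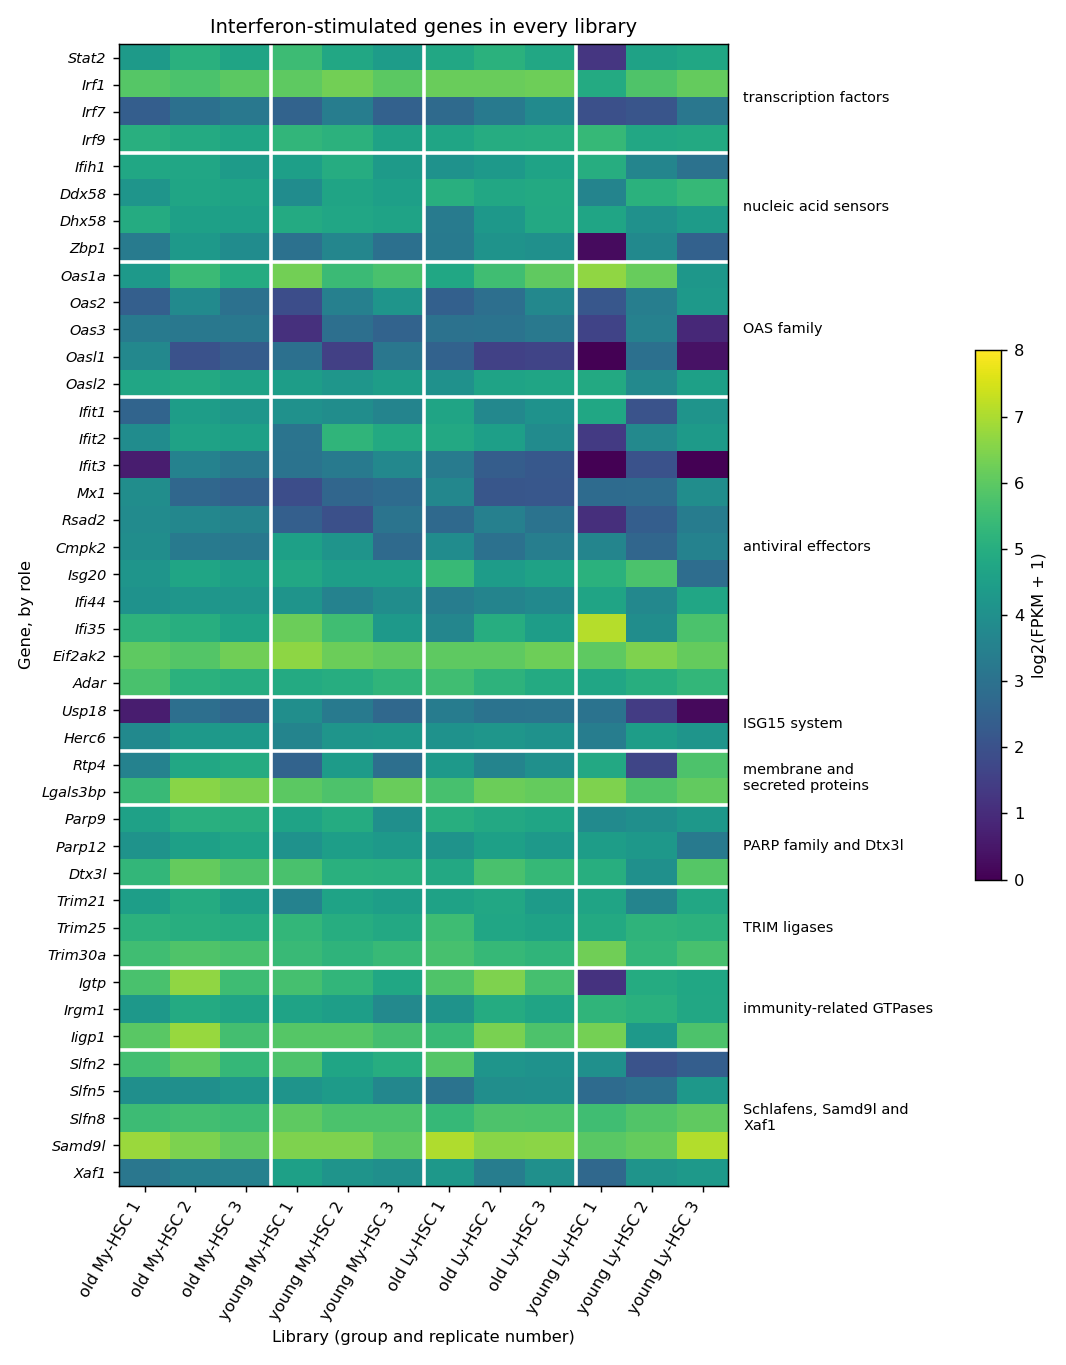
Level of each of the 42 members (rows, grouped by role) in each of the 12 libraries (columns), as log2(FPKM + 1) in colour. Samd9l, Irf1 and Eif2ak2 are bright in every library, and the darkest cells, such as Ifit3 listed at 0, fall mostly in the young Ly-HSC libraries.

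Read totals are unknown because FPKM removes them, and relative depth could not be settled from the low values. Libraries differed in the share of genes listed at 0, at 12.1% to 18.2% in old My-HSCs, 19.3% to 26.1% in young My-HSCs, 13.3% to 22.3% in old Ly-HSCs and 25.0% to 34.1% in young Ly-HSCs. Slamf1, which encodes CD150, stood at 15 to 35.3 FPKM in My-HSC libraries and 1.39 to 8.33 FPKM in Ly-HSC libraries, without overlap. Markers of mature cells were uneven. The granulocyte list had 2 of its 12 genes in the table, Mmp9 and Itgam. It summed to 194 FPKM in old My-HSC library 1 and 227 FPKM in old Ly-HSC library 1, and to 33.0 FPKM or less in each of the other 10. The erythroid list, with 5 of its 10 genes in the table, was uneven in the same way. It summed to 50 FPKM in old My-HSC library 1 and 85.1 FPKM in old Ly-HSC library 1, and to 22 FPKM or less in each of the other 10.

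The young Ly-HSC libraries stood lowest on the list as a whole. Averaged over members, log2(FPKM + 1) was 4.30 to 4.70 in old My-HSCs, 4.32 to 4.51 in young My-HSCs, 4.43 to 4.45 in old Ly-HSCs and 3.91 to 4.22 in young Ly-HSCs. The same average over all genes was 2.82 to 2.87 in old My-HSCs, 2.66 to 2.76 in young My-HSCs, 2.75 to 2.83 in old Ly-HSCs and 2.42 to 2.66 in young Ly-HSCs, so the table as a whole was also lowest in young Ly-HSCs. A young Ly-HSC library held the lowest value of 29 members, or 69.0%, against 54.7% of all genes, and the highest value of 17 members, or 40.5%, against 41.2%. Young Ly-HSC library 1 had the lowest mean of all 12 libraries, yet its middle member stood at 24.3 FPKM, second to old My-HSC library 2 at 26.3 FPKM. Its low mean came from a few members near 0, among them Ifit3 and Oasl1 listed at 0, Zbp1 at 0.173 FPKM, Igtp at 1.24 FPKM and Stat2 at 1.38 FPKM. The members' median SD on the log2 scale was 0.31 in old My-HSCs, 0.36 in young My-HSCs, 0.39 in old Ly-HSCs and 0.85 in young Ly-HSCs (n = 3 each). In a bulk library, fewer cells that express a gene and less RNA of it per cell cannot be told apart.

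**Figure D2:**
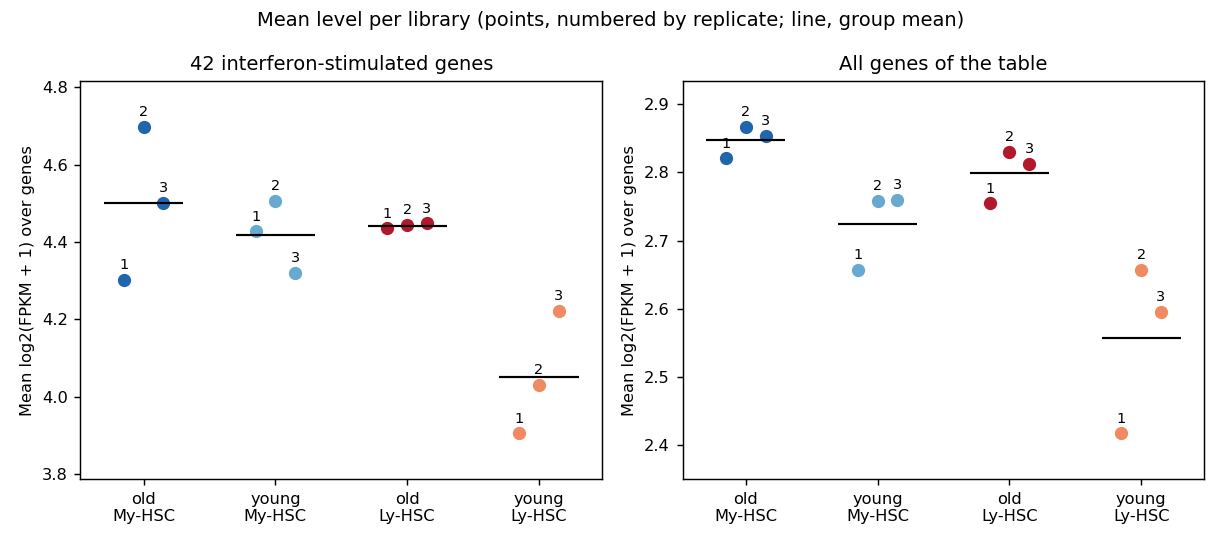
Mean log2(FPKM + 1) per library over the 42 members (left) and over all genes of the table (right), with points numbered by replicate and a line at each group mean. On both sides the 3 young Ly-HSC libraries lie lowest, and the 3 old Ly-HSC libraries almost coincide on the left, at 4.43 to 4.45.

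The age comparisons ask how each stem cell fraction changes between young and old mice, and the subset comparisons how My-HSCs and Ly-HSCs differ at 1 age. No member passed the test in any of them. With limma on log2(FPKM + 1) and Benjamini-Hochberg adjustment over all 10900 genes, 0 of 42 members had an adjusted p under 0.05 in old versus young Ly-HSCs, where 0.349% of all genes did. Between old and young My-HSCs 0 of 42 passed, against 0.211% of all genes. In young My-HSCs versus young Ly-HSCs 0 of 42 passed, against 0.119%, and in old My-HSCs versus old Ly-HSCs 0 of 42, against 0.0275%. For the interaction, in which the Ly-HSC age effect is subtracted from the My-HSC one, 0 of 42 passed, against 0% of all genes. With so few genes passing anywhere, 0 of 42 is near the background. The averages of the age effect over both subsets and of the subset effect over both ages, added after the values were seen, also called 0 of 42, against 0.844% and 0.413% of all genes.

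Unadjusted p-values give a less strict count. In old versus young Ly-HSCs 8 members had an unadjusted p under 0.05, or 19.0%, against 13.3% of all genes: Slfn2, Igtp, Parp9, Ifit3, Zbp1, Irf1 and Usp18 stood higher in old cells and Ifi44 lower. That count ran from 4, without old Ly-HSC library 1 or 2, to 13, without young Ly-HSC library 2. Between old and young My-HSCs 1 member did, Rsad2, against 7.21% of all genes, and 0 to 3 did with 1 library left out. In young My-HSCs versus young Ly-HSCs there were 4, Slfn2, Ifit3, Usp18 and Irgm1, against 13.8%, and 9 without young Ly-HSC library 2 or 3. For the interaction there were 4, Usp18, Ifit3, Ifi44 and Irf1, against 5.65%, with 0 without old My-HSC library 1 and 7 without young Ly-HSC library 2. In old My-HSCs versus old Ly-HSCs there were 0, against 4.03%. Same-numbered old libraries of the 2 subsets deviated together, though the labels name no pairing. A fit with the number as a block in the 6 old libraries was added after the values were seen. It gave 5 members, against 11.7% of all genes. Dtx3l, Ifi44 and Slfn2 were then higher and Irf1 and Oas1a lower in My-HSCs, with adjusted p from limma of 0.352 to 0.428. The age comparison in Ly-HSCs and the subset comparison in young mice share the 3 young Ly-HSC libraries, so a low value there enters both.

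The transcription factors of the list are STAT2 and IRF9, both parts of ISGF3, IRF7, which amplifies type I interferon production, and IRF1, which acts in interferon gamma responses and in constitutive expression. None of the 4 passed in any comparison. Irf1, on chromosome 11 from 53770014 to 53778374, stood at 71.1, 71.0 and 74.1 FPKM in old Ly-HSCs, against 28.6, 55.0 and 67.7 FPKM in young Ly-HSCs. All 3 old libraries lay above all 3 young ones (log2 fold change 0.59 ± 0.26 SE, limma adjusted p = 0.346). In My-HSCs Irf1 stood at 58.7, 52.4 and 61.7 FPKM in old cells, against 63.2, 77.4 and 62.5 FPKM in young cells. Here all 3 old libraries lay below the young ones (log2 fold change -0.22 ± 0.26 SE, limma adjusted p = 0.951). Without young Ly-HSC library 1, the estimate in Ly-HSCs was 0.24, and without young My-HSC library 2 that in My-HSCs was -0.13.

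Stat2 stood at 26.9, 33.3 and 26.8 FPKM in old Ly-HSCs, against 1.38, 23.5 and 26.2 FPKM in young Ly-HSCs. The groups did not overlap, but 2 of the 3 young libraries lay close to the old ones, and without young Ly-HSC library 1 the log2 fold change was 0.21 in place of 1.36. In My-HSCs Stat2 stood at 19.5, 32.5 and 24.5 FPKM in old cells, against 43.7, 27.1 and 20.4 FPKM in young cells, which overlap. Irf9 had group means between 28.4 and 31.7 FPKM in all 4 groups. Irf7 was the lowest of the 4, between 2.85 and 13.3 FPKM over the 12 libraries.

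The nucleic acid sensors are Ddx58 (RIG-I), Ifih1 (MDA5) and Dhx58 (LGP2), which detect double-stranded RNA in the cytoplasm, and Zbp1, which detects Z-form nucleic acids and can trigger cell death. None of the 4 passed. Ddx58, the one with the highest mean, stood at 32.1, 26.6 and 28 FPKM in old Ly-HSCs, against 11.1, 33.8 and 39.9 FPKM in young Ly-HSCs, so the young libraries spread to both sides. The My-HSC values were 16.9, 25.2 and 24.0 FPKM in old cells, against 13.9, 24.3 and 21.7 FPKM in young cells. All 3 old My-HSC libraries lay below the old Ly-HSC libraries (log2 fold change -0.39 ± 0.40 SE, limma adjusted p = 1), and without old My-HSC library 1 the estimate was -0.22. Dhx58 stood at 29.6, 22.6 and 21.9 FPKM in old My-HSCs, against 8.97, 18.2 and 27.5 FPKM in old Ly-HSCs. These overlap, and without the 4 libraries numbered 1 the estimate was -0.011 in place of 0.53.

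Zbp1 stood at 8.69, 16.1 and 15.3 FPKM in old Ly-HSCs, against 0.173, 13.0 and 4.62 FPKM in young Ly-HSCs. The lowest of the 12 values was that of young Ly-HSC library 1, and without it the log2 fold change was 0.65 in place of 1.62. In My-HSCs Zbp1 stood at 9.11, 18.7 and 13.9 FPKM in old cells, against 6.89, 11.8 and 6.70 FPKM in young cells, with overlap. Ifih1 ranged from 16.0 to 30.7 FPKM outside 2 young Ly-HSC libraries, at 11.4 and 7.11 FPKM.

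The OAS family makes or resembles enzymes that form oligoadenylates on double-stranded RNA and so activate RNase L. None of its 5 members passed, and its libraries varied widely. Oas1a, with the highest mean of the family, stood at 18.5, 43.2 and 29.5 FPKM in old My-HSCs, against 78.0, 42.4 and 51.6 FPKM in young My-HSCs. The groups overlapped by 1 pair of close values (log2 fold change -0.93 ± 0.54 SE, limma adjusted p = 0.820). In Ly-HSCs Oas1a stood at 26.4, 45.6 and 64.7 FPKM in old cells, against 102, 69.1 and 18.0 FPKM in young cells, and the young libraries enclosed the old ones. Oas3 stood at 8.88, 8.29 and 8.29 FPKM in old My-HSCs, against 1.14, 6.52 and 4.90 FPKM in young My-HSCs. Every old library was higher than every young one (log2 fold change 1.06 ± 0.65 SE, limma adjusted p = 0.845), and without young My-HSC library 1 the estimate was 0.51. The old Ly-HSC libraries held Oas3 at 7.16, 7.31 and 8.37 FPKM, against 2.04, 10.4 and 0.876 FPKM in young Ly-HSCs. Oasl2 also separated by age in My-HSCs, at 25.6, 27.8 and 23.6 FPKM in old and 20.8, 17.4 and 20.7 FPKM in young cells. Oas2 ranged from 2.71 to 18.9 FPKM and Oasl1 from 0 to 12.2 FPKM without such a separation.

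Among the antiviral effectors are the IFIT proteins, which bind foreign RNA and curb its translation, viperin, encoded by Rsad2, which makes a chain-terminating nucleotide, and its neighbour Cmpk2, a nucleotide kinase. The others are PKR, the RNA-editing enzyme ADAR1, encoded by Adar, the exonuclease gene Isg20, Ifi35, Ifi44 and Mx1, a dynamin-like GTPase gene of which C57BL/6 mice are known to carry a defective allele. None of the 11 passed. Ifit3 stood at 9.11, 4.18 and 3.61 FPKM in old Ly-HSCs, against 0, 3.03 and 0 FPKM in young Ly-HSCs. All 3 old libraries were above the young ones (log2 fold change 1.97 ± 0.77 SE, limma adjusted p = 0.305). In My-HSCs it stood at 0.546, 10.8 and 8.15 FPKM in old cells, against 7.26, 8.62 and 12.4 FPKM in young cells. Old My-HSC library 1 stood apart, and without it the estimate was 0.03 in place of -0.89.

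In young mice, Ifit3 in My-HSCs lay above that in Ly-HSCs in every pair of libraries (log2 fold change 2.68 ± 0.77 SE, limma adjusted p = 0.164). Without young Ly-HSC library 2, the one of the 3 not listed at 0, the estimate was 3.35 and passed (limma adjusted p = 0.0431). In that setting 299 of all genes passed, against 13 with all libraries. In the other 20 of 21 alternative fits Ifit3 did not pass (limma adjusted p up to 0.739). Ifit1 and Ifit2 lie in the same cluster on chromosome 19. Ifit1 stood at 24.4, 12.2 and 15.8 FPKM in old Ly-HSCs, against 26.2, 3.10 and 16.8 FPKM in young Ly-HSCs. Ifit2 stood at 27.3, 21.7 and 13.6 FPKM in old Ly-HSCs, against 1.55, 12.5 and 19.4 FPKM in young Ly-HSCs. Both overlapped between the ages, so the separation of Ifit3 was not seen in its neighbours.

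Rsad2 had the smallest p of the list in old versus young My-HSCs. It stood at 13.4, 11.9 and 10.9 FPKM in old My-HSCs, against 4.39, 2.87 and 7.51 FPKM in young My-HSCs. The groups did not overlap (log2 fold change 1.21 ± 0.56 SE, 2.31-fold, limma adjusted p = 0.690). In Ly-HSCs it stood at 5.64, 10.1 and 7.30 FPKM in old cells, against 1.09, 4.25 and 9.17 FPKM in young cells, which overlap. All 3 old My-HSC libraries also lay above the old Ly-HSC ones (log2 fold change 0.62 ± 0.56 SE, limma adjusted p = 1). Cmpk2, next to Rsad2 on chromosome 12, stood at 14.0, 8.52 and 8.22 FPKM in old My-HSCs, against 22.4, 16.8 and 5.81 FPKM in young My-HSCs, and overlapped.

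Ifi44, a microtubule-associated antiviral protein, was the 1 member lower in old Ly-HSCs at an unadjusted p under 0.05. It stood at 9.57, 11.2 and 12.9 FPKM in old Ly-HSCs, against 24.3, 12.3 and 25.6 FPKM in young Ly-HSCs. Old library 3 lay above young library 2, so the groups touched (log2 fold change -0.77 ± 0.33 SE, limma adjusted p = 0.341). In My-HSCs it stood at 15.8, 17.4 and 17.6 FPKM in old cells, against 16.8, 10.7 and 14.2 FPKM in young cells. Within old mice all 3 My-HSC libraries lay above the Ly-HSC ones (log2 fold change 0.56 ± 0.33 SE, limma adjusted p = 1). Ifi44 and Ifit3 thus stood on opposite sides in the same libraries, Ifi44 lower and Ifit3 higher in old Ly-HSCs.

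Eif2ak2 was among the steadiest members. It stood at 64.3, 63.2 and 74.9 FPKM in old Ly-HSCs, against 64.0, 87.3 and 68.0 FPKM in young Ly-HSCs. The My-HSC values were 63.5, 57.1 and 76.0 FPKM in old cells, against 98.2, 72.1 and 64.6 FPKM in young cells. The 95% interval of its age effect ran from -0.54 to 0.33 in Ly-HSCs and from -0.68 to 0.20 in My-HSCs on the log2 scale. Adar had group means of 38.4 FPKM in old My-HSCs, 32.0 FPKM in young My-HSCs, 36.5 FPKM in old Ly-HSCs and 31.7 FPKM in young Ly-HSCs. Ifi35 spread widely within a group, from 14.0 to 138 FPKM among the young Ly-HSC libraries. Isg20 ranged from 6.19 to 51.7 FPKM and Mx1 from 2.71 to 14.2 FPKM.

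Usp18 and Herc6 act on the ubiquitin-like protein ISG15: USP18 removes it and also blocks the type I receptor, and HERC6 is the ligase that attaches it in mice. Neither passed. Usp18 stood at 9.21, 7.32 and 7.49 FPKM in old Ly-HSCs, against 7.27, 1.67 and 0.159 FPKM in young Ly-HSCs. The groups did not overlap but nearly met at young library 1 (log2 fold change 1.60 ± 0.74 SE, limma adjusted p = 0.374). Leaving out 1 library gave estimates from 0.93, without young Ly-HSC library 3, to 2.35, without young Ly-HSC library 1. In My-HSCs it stood at 0.561, 6.54 and 5.32 FPKM in old cells, against 14.4, 8.92 and 5.46 FPKM in young cells. That points the other way (log2 fold change -1.24 ± 0.74 SE, limma adjusted p = 0.840), and without old My-HSC library 1 the estimate was -0.53. Herc6 stayed between 9.57 and 20.7 FPKM in all 12 libraries. Its group means were 17.1 FPKM in old My-HSCs, 15.4 FPKM in young My-HSCs, 16.5 FPKM in old Ly-HSCs and 15.7 FPKM in young Ly-HSCs.

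**Figure D3:**
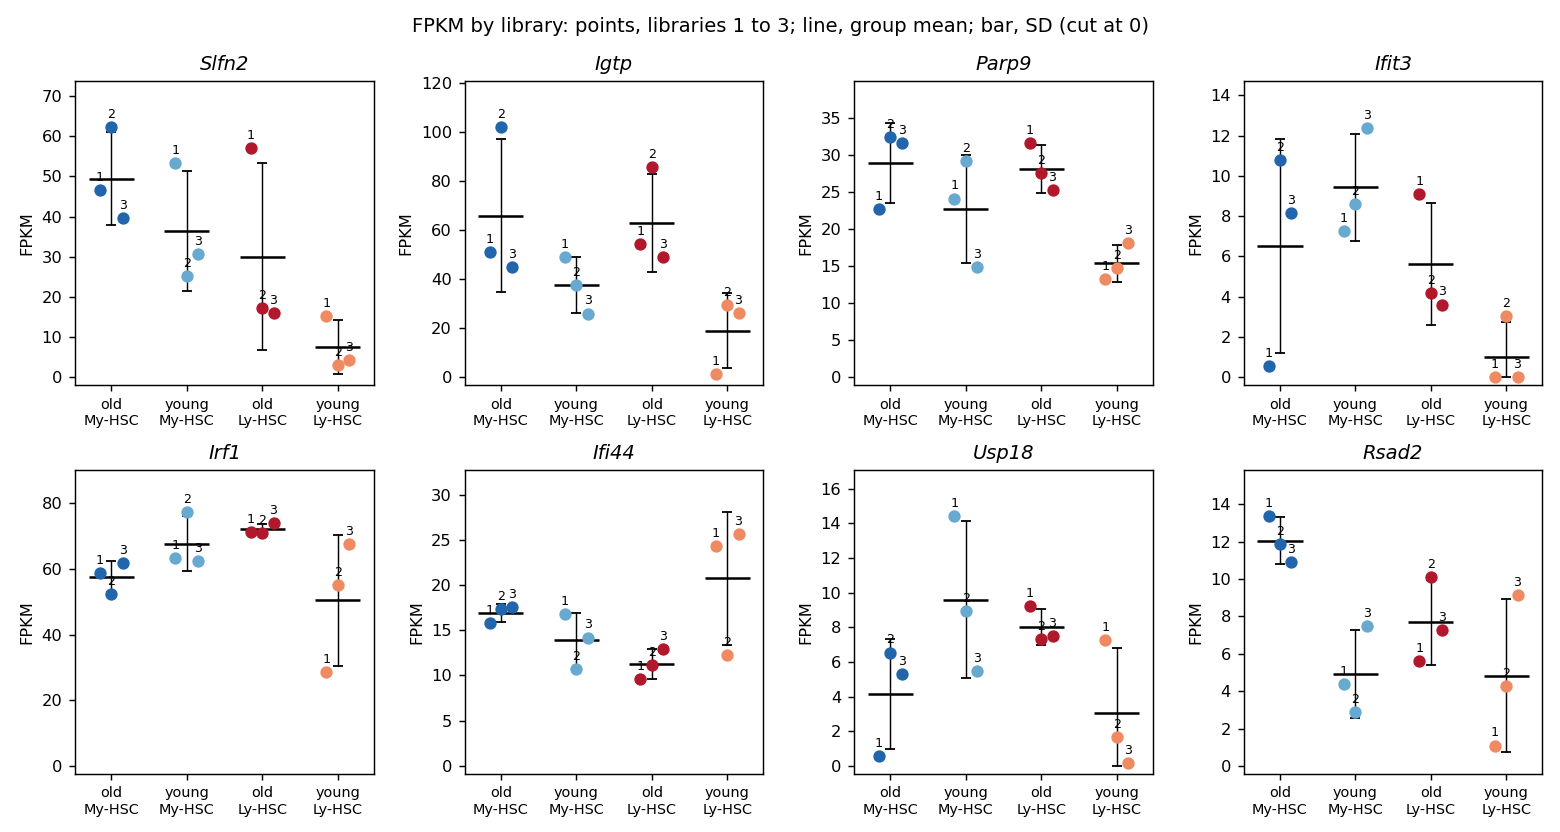
FPKM of 8 members in each library, with points numbered 1 to 3 by replicate, lines at group means and bars for the SD (n = 3). In young Ly-HSCs Ifit3 is listed at 0 in 2 libraries and Igtp is at 1.24 FPKM in library 1, while the 3 old Ly-HSC points of Irf1 lie between 71.0 and 74.1 FPKM.

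The PARP family members PARP9 and PARP12 attach or bind ADP-ribose, and DTX3L is the ubiquitin ligase partner of PARP9. None of the 3 genes passed. Parp9, on chromosome 16 from 35938470 to 35972605, stood at 31.6, 27.6 and 25.2 FPKM in old Ly-HSCs, against 13.3, 14.7 and 18.1 FPKM in young Ly-HSCs. The groups did not overlap and no single library made the gap (log2 fold change 0.84 ± 0.28 SE, 1.78-fold, limma adjusted p = 0.234), with estimates of 0.74 to 0.95 when 1 library was left out. In My-HSCs it stood at 22.7, 32.4 and 31.6 FPKM in old cells, against 24.1, 29.1 and 14.8 FPKM in young cells, with overlap. Dtx3l stood at 27.4, 50.7 and 40 FPKM in old Ly-HSCs, against 31.5, 15.1 and 58.8 FPKM in young Ly-HSCs, so the partner gene did not separate. Exons of Parp9 and Dtx3l overlap on opposite strands of chromosome 16, and the deposited values do not say whether reads were counted by strand. Parp12 ranged from 8.54 to 25.2 FPKM.

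The TRIM ligases are TRIM25, which activates RIG-I, TRIM21, an intracellular antibody receptor, and the mouse protein TRIM30A, an inhibitor of inflammatory signalling. None passed. Trim30a stood at 45.7, 54.9 and 49.6 FPKM in old My-HSCs, against 41.6, 36.1 and 40.7 FPKM in young My-HSCs, without overlap (log2 fold change 0.34 ± 0.24 SE, limma adjusted p = 0.901). In Ly-HSCs it stood at 50.3, 40.3 and 36.7 FPKM in old cells, against 75.9, 38.3 and 50.3 FPKM in young cells. Trim25 stayed between 23.6 and 44.5 FPKM, and Trim21 between 10.8 and 29.3 FPKM. The membrane and secreted products are Lgals3bp, which ranged from 41.8 to 95 FPKM, and Rtp4, a receptor-transporting protein with antiviral activity, which ranged from 2.19 to 53.7 FPKM. Both of these extremes of Rtp4 fell in young Ly-HSC libraries. Neither passed in any comparison.

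The immunity-related GTPases attack the vacuoles of intracellular pathogens, and in mice Irgm1 is known to protect stem cells during interferon gamma responses. None of the 3 passed. Igtp, also called Irgm3, lies on chromosome 11 from 58199556 to 58207591. It stood at 54.2, 85.8 and 49.1 FPKM in old Ly-HSCs, against 1.24, 29.4 and 26.4 FPKM in young Ly-HSCs. The groups did not overlap (log2 fold change 2.34 ± 0.76 SE, 5.05-fold, limma adjusted p = 0.213), and without young Ly-HSC library 1 the estimate was 1.11. In My-HSCs Igtp stood at 51.0, 102 and 44.9 FPKM in old cells, against 49.2, 37.7 and 26.0 FPKM in young cells, with overlap. Exons of Igtp overlap those of Irgm2 on the same strand, so its value may hold reads of both.

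Irgm1 was lower in My-HSCs than in Ly-HSCs of young mice. It stood at 24.2, 21.6 and 12.5 FPKM in young My-HSCs, against 36.3, 32.8 and 26.6 FPKM in young Ly-HSCs. Every young My-HSC library was lower (log2 fold change -0.73 ± 0.31 SE, limma adjusted p = 0.323), and without young My-HSC library 3 the estimate was -0.45. In old mice the same gene stood at 18.4, 28.9 and 24.6 FPKM in My-HSCs, against 16.1, 29.1 and 24.4 FPKM in Ly-HSCs, almost the same values library by library. Iigp1, the GTPase gene with the highest mean, stood at 61.0, 107 and 48.0 FPKM in old My-HSCs, against 58.3, 58.4 and 47.6 FPKM in young My-HSCs. In Ly-HSCs it stood at 41.0, 82.1 and 53.8 FPKM in old cells, against 78.8, 18.5 and 53.8 FPKM in young cells. In old My-HSC library 2 and old Ly-HSC library 2 both Igtp and Iigp1 had their group's highest value.

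Slfn2 had the smallest p of any member in old versus young Ly-HSCs and in young My-HSCs versus young Ly-HSCs. Schlafen 2 is known in mice to keep T cells quiescent. On GRCm38, as annotated by GENCODE M21, the gene (ENSMUSG00000072620.3) lies on chromosome 11 from 83065112 to 83070678. It stood at 57.0, 17.2 and 15.9 FPKM in old Ly-HSCs, against 15.3, 3.14 and 4.25 FPKM in young Ly-HSCs. Every old library was above every young one, by a small margin at young library 1 (log2 fold change 1.88 ± 0.55 SE, 3.69-fold, limma adjusted p = 0.174). Without young Ly-HSC library 1 the estimate was 2.49 and passed (limma adjusted p = 0.0465), in a setting where 59 of all genes passed against 38. In the other 20 of 21 alternative fits Slfn2 did not pass (limma adjusted p up to 0.524). Old Ly-HSC library 1, the highest in Slfn2, was also the highest in the granulocyte sum, and without it the estimate was 1.31. That sum was 19.8 to 227 FPKM in old Ly-HSCs and 0.369 to 33.0 FPKM in young Ly-HSCs, and the part of mature cells in the difference was not tested.

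In young mice every My-HSC library stood above every Ly-HSC library in Slfn2. It stood at 53.4, 25.2 and 30.6 FPKM in young My-HSCs, against 15.3, 3.14 and 4.25 FPKM in young Ly-HSCs (log2 fold change 2.33 ± 0.55 SE, 5.03-fold, limma adjusted p = 0.0929). Without young Ly-HSC library 1 the estimate was 2.93 and passed (limma adjusted p = 0.0227). It also passed without the 4 libraries numbered 1, at 2.63 (limma adjusted p = 0.0387). In these settings 55 and 32 of all genes passed, against 13 with all libraries. In the other 19 of 21 alternative fits Slfn2 did not pass (limma adjusted p up to 0.585). The granulocyte sum was 0 to 6.73 FPKM in young My-HSCs and 0.369 to 33.0 FPKM in young Ly-HSCs. The B cell list, with 6 of its 8 genes in the table, summed to 2.93 to 26.1 FPKM in young My-HSCs and 0.114 to 18.2 FPKM in young Ly-HSCs, and the T and NK cell list, with 7 of 9, to 0.0657 to 9.84 FPKM in young My-HSCs and 0 to 2.1 FPKM in young Ly-HSCs. Young My-HSC library 1, the highest of these 6 in Slfn2, was also the highest in both lymphoid sums. Its T and NK sum came from Klrb1c alone, at 9.84 FPKM. Cd3d, Cd3e, Cd3g and Cd8a were listed at 0 in every young My-HSC library. The part of mature cells in the difference was not tested. In old mice Slfn2 stood at 46.6, 62.2 and 39.6 FPKM in My-HSCs, against 57.0, 17.2 and 15.9 FPKM in Ly-HSCs, with overlap through old Ly-HSC library 1 (log2 fold change 0.93 ± 0.55 SE, limma adjusted p = 1). Without that library it was 1.50 and did not pass.

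The other schlafens and the last members of the list showed smaller differences. Slfn8 stood at 43.4, 46.7 and 43.3 FPKM in old My-HSCs, against 64.0, 52.4 and 51.8 FPKM in young My-HSCs, all 3 old libraries lower (log2 fold change -0.32 ± 0.20 SE, limma adjusted p = 0.846). Xaf1, a proapoptotic factor, stood at 7.99, 10.0 and 10.4 FPKM in old My-HSCs, against 22.5, 16.6 and 14.9 FPKM in young My-HSCs, again without overlap (log2 fold change -0.85 ± 0.43 SE, limma adjusted p = 0.758). In Ly-HSCs Xaf1 overlapped, at 18.1, 9.48 and 15.3 FPKM in old and 5.47, 16.7 and 19.1 FPKM in young cells. Slfn5 stood at 14.8, 14.9 and 17.6 FPKM in old My-HSCs, against 7.19, 14.4 and 14.7 FPKM in old Ly-HSCs, apart by a narrow margin. Samd9l stood at 132, 95 and 96.3 FPKM in old Ly-HSCs, against 61.0, 68.5 and 134 FPKM in young Ly-HSCs. The My-HSC values were 109, 83.9 and 66.7 FPKM in old cells, against 87.5, 86.6 and 63.4 FPKM in young cells, and no comparison separated it.

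Counted over the list, members whose groups did not overlap were about as common as such genes elsewhere in the table. In old versus young Ly-HSCs 7 members were higher in every old library, or 16.7% against 11.5% of all genes, and 0 were lower, against 4.5%. In old versus young My-HSCs 4 were higher, or 9.52% against 11.3%, and 3 lower, or 7.14% against 7.8%. In young My-HSCs versus young Ly-HSCs 2 were higher, against 8.97% of all genes, and 2 lower, Irgm1 and Mx1, against 4.41%. In old My-HSCs versus old Ly-HSCs 3 were higher, against 9.19%, and 3 lower, Ddx58, Irf1 and Usp18, against 7.53%.

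The list as a whole leaned to the old side in Ly-HSCs, as did all genes. Of 42 members 28 were higher in old Ly-HSCs, or 66.7%, with a median log2 fold change of 0.25, against 62.4% and 0.18 for all tested genes. With 1 library left out the members' median ran from 0.16, against 0.24 for all genes, without young Ly-HSC library 2, to 0.44, against 0.20, without young Ly-HSC library 3. Quantile normalization brought the median of all genes to -0.01, and 25 members were then higher with a median of 0.21. Between old and young My-HSCs 24 were higher, with a median of 0.12 against 0.07 for all genes, and 0.01 to 0.21 with 1 library left out. In young My-HSCs versus young Ly-HSCs 29 were higher, with a median of 0.20 against 0.13, and after quantile normalization 28 were, with 0.16 against 0.01. In old My-HSCs versus old Ly-HSCs 27 were higher, or 64.3% against 52.0% of all genes, with 0.05 against 0.02. Without old My-HSC library 2 only 19 were higher, with a median of -0.06, and without old My-HSC library 1 the median was 0.18. No test of these counts was made, since members are not replicates.

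**Figure D4:**
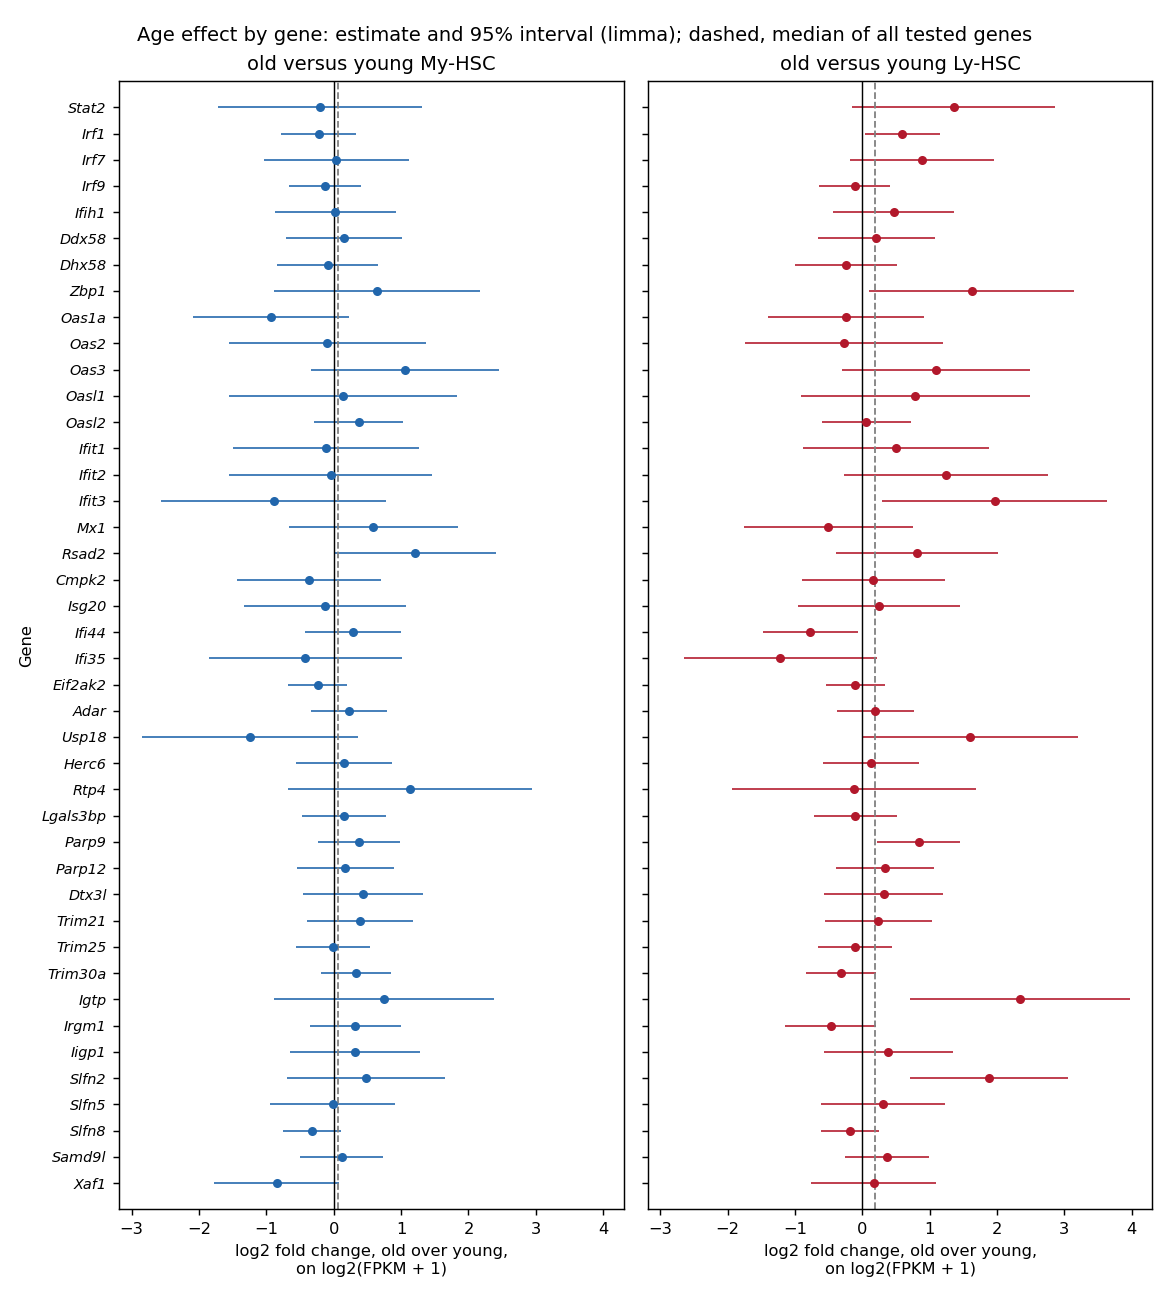
Estimated log2 fold change of each member, old over young, in My-HSCs (left) and Ly-HSCs (right), with 95% intervals from limma and a dashed line at the median of all tested genes, 0.07 on the left and 0.18 on the right. Most intervals cross 0. Before adjustment for multiple testing, 7 in Ly-HSCs lie above it, among them Slfn2, Igtp and Parp9, and that of Ifi44 lies below it.

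Whether age acted differently in the 2 subsets was asked with the interaction. Usp18 had the smallest p, with an age effect lower by 2.85 in My-HSCs than in Ly-HSCs on the log2 scale (difference -2.85 ± 1.05 SE, limma adjusted p = 0.864). For Ifit3 the difference was -2.86 ± 1.10 (SE, limma adjusted p = 0.864), and for Ifi44 1.06 ± 0.46 (SE, limma adjusted p = 0.864). None passed, so an age effect limited to 1 subset is not shown for them. Without old My-HSC library 1, in which both Usp18 and Ifit3 were near 0, the differences were -2.13 for Usp18 and -1.94 for Ifit3. That library also had the highest granulocyte sum of its group, and the part of mature cells in its low values was not tested.

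Among genes that carry the interferon signal, Socs3 alone passed, and only in the age effect averaged over both subsets. Of 52 such genes listed, 41 were in the table and 37 were tested, and 0 of 37 passed in each of the 5 comparisons. Of 11 interferon genes 1 was in the table, Ifng, at 0.44 FPKM in old My-HSC library 1 and listed at 0 in the other 11 libraries. Among 6 receptor subunits, Ifnar1 stood at 24.5, 23.4 and 23.7 FPKM in old Ly-HSCs, against 13.6, 13.2 and 7.00 FPKM in young Ly-HSCs, without overlap (log2 fold change 1.07 ± 0.32 SE, limma adjusted p = 0.190). The kinase gene Tyk2 was lower in every old My-HSC library, at 9.18, 14.7 and 13.2 FPKM, against 31.1, 24.9 and 22.3 FPKM in young My-HSCs (log2 fold change -1.03 ± 0.30 SE, limma adjusted p = 0.335).

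Other signalling genes are given for the smallest p of their list. Socs3, an inhibitor of JAK signalling, stood at 73.0, 19.0 and 32.5 FPKM in old My-HSCs, against 0, 3.29 and 4.73 FPKM in young My-HSCs (log2 fold change 3.66 ± 0.69 SE, limma adjusted p = 0.0536). Averaged over both subsets, the age effect of Socs3 was 2.52 ± 0.49 and passed (SE, limma adjusted p = 0.0276), as did 0.844% of all genes. It did not pass without old Ly-HSC library 1 or 3, or without old My-HSC library 1 or 3 (limma adjusted p of 0.0708 to 0.0829), and passed without each of the other 8. Without the 4 libraries numbered 1 the averaged estimate was 1.71 and did not pass (limma adjusted p = 0.0774). The averaged fit had no replicate block, although same-numbered old libraries deviated together, so its p-values may be too small. Socs3 was highest in old My-HSC library 1, which also had the group's highest granulocyte sum. That sum was 21.5 to 194 FPKM in old My-HSCs and 0 to 6.73 FPKM in young My-HSCs, and the part of mature cells in the difference was not tested. The DNA sensor gene Mb21d1, which encodes cGAS, stood at 9.79, 8.21 and 4.75 FPKM in old Ly-HSCs, against 0.618, 1.89 and 2.97 FPKM in young Ly-HSCs (log2 fold change 1.65 ± 0.54 SE, limma adjusted p = 0.222). Its adaptor gene Tmem173, which encodes STING, had its smallest p in young My-HSCs versus young Ly-HSCs, at 9.48, 3.88 and 17.5 FPKM in My-HSCs, against 48.1, 19.9 and 53.3 FPKM in Ly-HSCs (log2 fold change -1.96 ± 0.46 SE, limma adjusted p = 0.0957). Others with the smallest p of their list in an age comparison included Ifnlr1, Irf2, Ikbke, Stat5a and Ptpn2, with adjusted p from limma between 0.254 and 0.914.

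Among interferon-induced genes outside the list, 2 of 14 tested passed in old versus young Ly-HSCs, against 0.349% of all genes. Of 17 such genes, mainly for antigen presentation and guanylate-binding proteins, 15 were in the table and 14 were tested. All 14 were higher in old than in young Ly-HSCs, against 62.4% of all genes. Their median log2 fold change was 0.77, against 0.18 for all genes, and after median-of-ratios scaling 13 of 14 were higher. In the same libraries the granulocyte sum was 19.8 to 227 FPKM in old and 0.369 to 33.0 FPKM in young Ly-HSCs. The monocyte and macrophage list, with 6 of its 8 genes in the table, summed to 1.56 to 47.3 FPKM in old and 0.0473 to 0.429 FPKM in young Ly-HSCs. Old Ly-HSC library 1 was the highest in both sums and in Ly6a, and the part of mature cells in these differences was not tested. Gbp6, a guanylate-binding protein gene, rose to 29.9, 20 and 31.6 FPKM in old Ly-HSCs, against 0, 0.0597 and 6.36 FPKM in young Ly-HSCs (log2 fold change 3.80 ± 0.66 SE, limma adjusted p = 0.0347). Ly6a, which is interferon-induced and also encodes the sort antigen Sca-1, rose to 52.2, 30.4 and 11.7 FPKM in old Ly-HSCs, against 3.83, 3.15 and 1.24 FPKM in young Ly-HSCs (log2 fold change 2.96 ± 0.55 SE, limma adjusted p = 0.0440). Neither call held under every choice of libraries. With 1 of the 12 libraries left out, Gbp6 passed 4 times, without young Ly-HSC library 1, 2 or 3 or young My-HSC library 1, and Ly6a 4 times, without old Ly-HSC library 3, young Ly-HSC library 1 or 2 or young My-HSC library 3. Their estimates ran from 3.31 to 4.75 for Gbp6 and from 2.49 to 3.52 for Ly6a. With each of the 3 other scalings 1 of the 14 passed, and without the libraries numbered 1, 0 did. In a fit of only the old and young Ly-HSC libraries 0 of all genes passed, so neither Gbp6 nor Ly6a did. In the age effect averaged over both subsets 3 of 14 passed, Gbp6, Ly6a and the immunoproteasome subunit gene Psmb8, against 0.844% of all genes. Of these Gbp6 also passed with each of the 12 libraries left out in turn. Ly6a did not pass without old Ly-HSC library 2 or old My-HSC library 2 or 3. Psmb8 did not pass without old Ly-HSC library 2 or 3 or old My-HSC library 2 or 3. Without the 4 libraries numbered 1, Gbp6 (estimate 2.75, limma adjusted p = 0.0928) and Ly6a (limma adjusted p = 0.0783) did not pass. Psmb8 did (limma adjusted p = 0.0467). The averaged fit had no replicate block, although same-numbered old libraries deviated together, so its p-values may be too small. Between old and young My-HSCs 11 of 14 were higher, against 55.8% of all genes, with a median of 0.49 against 0.07, and 0 passed. A test of the difference between these genes and the 42 members was not made, and reads of near-identical guanylate-binding protein genes may be shared.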

How the data were processed

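Per the labels' protocols, sorted stem cells were lysed for total RNA, and a stranded mRNA kit and paired-end sequencing on a HiSeq3000 were used. The authors deposited 1 table of FPKM per gene and library. Named in the submitters' processing notes, without their roles, are STAR, DESeq2, bcl2fastq 2.17 and the build GRCm38 (mm10). Not given in the sources used here are the annotation, counting by strand and the handling of reads shared by near-identical genes. Levels of gene families with close copies (Ifit, Oas, Slfn, Trim30 and the GTPases) are therefore uncertain.

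All 42 members matched GENCODE M21. Exons of 4 overlap another gene on the same strand and those of 11 on the opposite strand. Values were analysed as log2(FPKM + 1), for genes at 1 FPKM or more in 3 or more libraries. Fold changes are on that scale and understate changes of low genes. Under R 4.3.3, limma 3.58.1 fitted 1 model of 4 group means to the 12 libraries, using an intensity trend, 8 residual and 5.11 prior degrees of freedom. Two-sided p-values were adjusted by Benjamini and Hochberg over all tested genes at a threshold of 0.05. The procedure was checked on simulated data with independent libraries and, for each gene, the same SD in every group. In the real data the median SD over tested genes was 0.675 in young Ly-HSCs and 0.278 in old My-HSCs on the log2 scale. The check therefore does not cover this uneven spread or libraries that deviate together. The members, the other lists and the rule for named genes (the 5 smallest p of each comparison, 3 for the interaction, the 4 highest means and the highest of each role) were chosen with earlier results of these data known. Some genes of the other lists are not reported here. Members named beyond that rule were chosen after their values were seen. The p-values rest on the spread between libraries from independent groups of mice, pooled over the 4 groups. Because young Ly-HSCs spread most, SEs and p-values may be too large in pairwise comparisons without them and too small in those with them.

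Same-numbered old My-HSC and old Ly-HSC libraries deviated together (correlations 0.256, 0.233 and 0.21 over genes). The labels do not say whether the numbers pair libraries, and what same-numbered old libraries share is not known. For the other 5 pairs of groups no correlation exceeded 0.1. Alternatives were another pseudocount, no filter, 3 scalings, a replicate block, weights per group, only the groups compared, and each library or the 4 numbered 1 left out. Read totals are not known, so no counting interval is given.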

Additional observations from a re-analysis of the deposited data

Results flagged for a closer look

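Irf1 was set apart because its age effect pointed in opposite directions in the 2 subsets, with no overlap between old and young libraries in either. Of all genes, 11.5% were higher without overlap in old Ly-HSCs and 7.8% were lower without overlap in old My-HSCs. The share of all genes with both was not counted, so Irf1 cannot be set against it. In My-HSCs the 3 old libraries, at 58.7, 52.4 and 61.7 FPKM, all lay below the young ones, at 63.2, 77.4 and 62.5 FPKM. In Ly-HSCs the 3 old libraries, at 71.1, 71.0 and 74.1 FPKM, all lay above the young ones, at 28.6, 55.0 and 67.7 FPKM. The difference of the age effects, My-HSCs minus Ly-HSCs, was -0.82 ± 0.37 on the log2 scale (SE, limma adjusted p = 0.867), so it did not pass over all genes. Leaving out 1 library gave differences from -1.07, without young Ly-HSC library 3, to -0.46, without young Ly-HSC library 1. The margin in My-HSCs was narrow, with the highest old library at 61.7 FPKM and the lowest young one at 62.5 FPKM. Exons of Irf1 overlap those of Gm17334 on the opposite strand.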

How the results depend on the processing

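The count of members passing stayed at 0 in the age comparison of My-HSCs, in old My-HSCs versus old Ly-HSCs and in the interaction under every alternative run. Leaving out 1 library gave 0 to 1 passing members in old versus young Ly-HSCs and 0 to 1 in young My-HSCs versus young Ly-HSCs, where leaving out the 4 libraries numbered 1 also gave 1. The passing member was Slfn2 without young Ly-HSC library 1 or without the libraries numbered 1, and Ifit3 without young Ly-HSC library 2. Without the libraries numbered 1, Dhx58 in old My-HSCs versus old Ly-HSCs changed sign, to -0.011, and without old My-HSC library 1 so did Ifit3 in old versus young My-HSCs, to 0.03. The members' median in old My-HSCs versus old Ly-HSCs changed sign too, to -0.06 without old My-HSC library 2. With the replicate block 0 members passed in each comparison, and 15, 9, 4, 1 and 0 of all genes did in the order Ly-HSC age, My-HSC age, young subsets, old subsets and interaction, against 38, 23, 13, 3 and 0. With the block in the 6 old libraries alone, chosen after seeing the data, 0 members and 3 of all genes passed, and 27 members were higher in My-HSCs. No member's call changed under either block. When 1 library was left out, the number of all genes passing ran from 7 to 223 in Ly-HSC age and 0 to 299 in young subsets. In a fit of only the groups compared it was 0 in both, but 36 in My-HSC age and 12 in old subsets. With 1 weight per group, which allows for uneven spread, it was 9, 71, 0, 69 and 0 in the order above. Of the members 0 passed in each of these fits. Having 3 libraries a group and unknown depth limit what the absence of calls can show.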
